A study of Danio rerio with 6 samples.

Results

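The genes described here pattern the midbrain-hindbrain boundary and the neural plate around it, together with the zic family of neural plate zinc-finger factors. They are pax2a, eng2a, gbx1, gbx2, meis3, zic1, zic2a, zic2b and zic5. A probe set, the group of probes that reads 1 transcript on the array, was included when the platform annotation gave it exactly 1 gene symbol and that symbol was a member. eng2a stood in the annotation as en2a, for which RefSeq lists eng2a as a synonym. All 9 genes were measured, by 12 probe sets of 15502 tested, out of 8793 named genes on the array.

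Transcripts were measured on 6 Affymetrix zebrafish arrays, 3 of wild-type AB strain embryos (control) and 3 of Tg(HSP:EWS-FLI1) embryos (EWS-FLI1). The transgene lets a heat shock promoter drive human EWS-FLI1, a fusion oncogene known from Ewing sarcoma, and no cell type restriction is given in the sources used here. At 50% epiboly all embryos, of either line, were held at 39 °C for 30 min and then kept at 28.5 °C for 2 h before collection, so the controls carry the treatment without the transgene. Each array read RNA of 40 pooled embryos, which are called biological replicates, while the parents and clutches behind a pool are not given. p-values here thus reflect how pools vary, and fewer cells of a type and less RNA per cell cannot be told apart in such samples.

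The midbrain-hindbrain boundary is a signalling centre of the vertebrate neural plate. It forms where otx genes of the forebrain and midbrain meet gbx genes of the hindbrain, and it secretes Wnt and Fgf ligands that pattern the tissue on either side. pax2a and the engrailed genes are transcription factors of this territory, and zebrafish embryos without pax2a lose the boundary. meis3 encodes a homeodomain cofactor of Hox proteins in the hindbrain. The zic genes are expressed early in the dorsal and anterior neural plate and at its border, and they are known for roles in neural plate, forebrain and neural crest development.

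All values are log2 RMA values, on which a difference of 1 is a 2-fold change, and differences are EWS-FLI1 minus control. Array medians lay between 5.07 and 5.12, and the number of arrays, 3 per group, limits the precision. As a reference for background, the 95th percentile of 44 bacterial and tag control probe sets was 4.23, which was not exceeded by the mean of 38.8% of the probe sets. Markers of the embryo's tissues were above this reference in both groups, with control means of 8.13 for the neural gene sox2, 9.77 for the mesodermal gene tbx16, 5.69 for the endodermal gene sox17 and 11.9 for the outer-layer keratin gene krt4. EWS-FLI1 means of these 4 were 7.26, 9.36, 5.66 and 11.8.

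Boundary and zic genes were lower in EWS-FLI1 embryos. Of the 12 member probe sets, 8 fell, 0 rose and 4 were not called (limma, adjusted p under 0.05 over all probe sets). At the same threshold 6.46% of all probe sets fell and 5.38% rose. At an unadjusted p under 0.05 (limma), 11 of the 12 fell and 0 rose. The share over all probe sets was not counted at the unadjusted threshold, so counts given there have no background beside them. Every EWS-FLI1 array lay below every control array at 9 of the 12, against 14.8% of all probe sets. With the brightest probe set standing for each gene, the median difference was -0.84, while the median over all probe sets was 0.00. pax2a, meis3, zic1, zic2a, zic2b and zic5 fell, and eng2a, gbx1 and gbx2 were not called. The 8 calls became 3 without control 1, and 2, 5 and 3 without EWS-FLI1 1, 2 and 3, with all differences still below 0. Without control 2 or control 3 the count was again 8, though not of the same probe sets. Over all probe sets, the 1001 lower calls became 711 without control 1, and 433, 572 and 519 without EWS-FLI1 1, 2 and 3. Without control 2 or 3 they were 1286 and 1077. The members were chosen with earlier results of these arrays known, so these counts describe the genes and are not independent evidence.

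**Figure D1:**
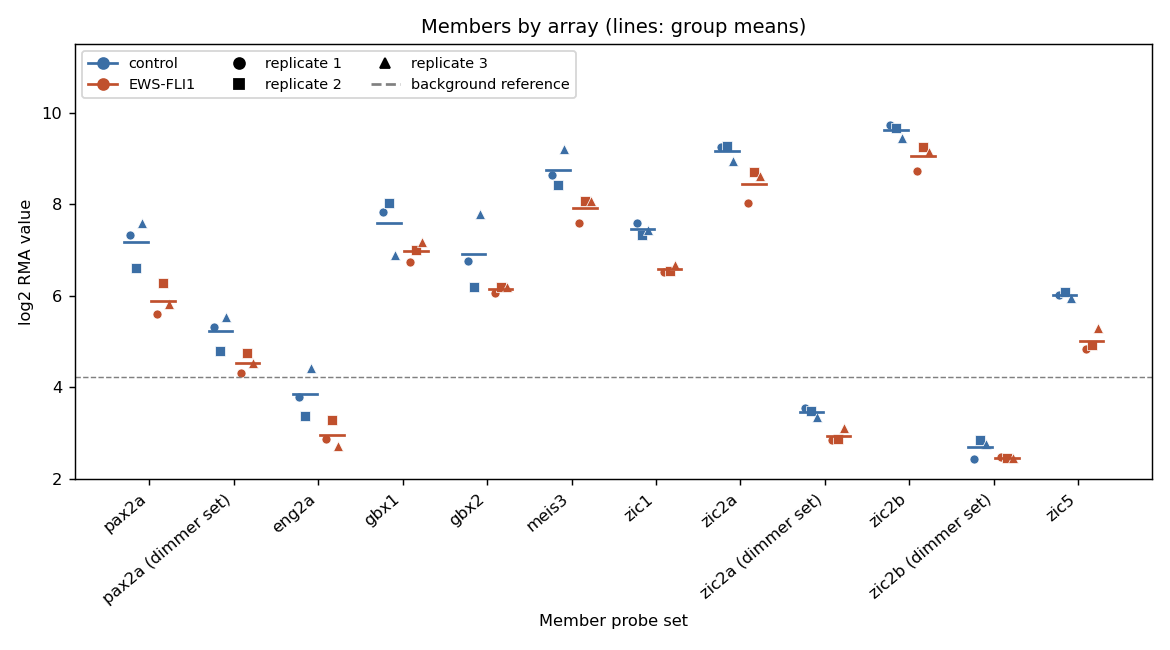
Log2 RMA values of the 12 member probe sets on each of the 6 arrays, with replicates as symbols, group means as short lines and the background reference of 4.23 dashed. The 3 EWS-FLI1 arrays lie below the 3 control arrays at 9 probe sets, while those of gbx1, gbx2 and the dimmer zic2b probe set overlap or touch.

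pax2a, the paired-box factor of the boundary, had the largest difference of the members. Its brighter probe set read 7.33, 6.60 and 7.60 in controls 1, 2 and 3, and 5.61, 6.27 and 5.81 in EWS-FLI1 1, 2 and 3. The groups did not overlap, with the lowest control 0.33 above the highest EWS-FLI1 array. Expression fell from 7.18 ± 0.52 to 5.90 ± 0.34 (SD, n = 3 each), a difference of -1.28 (SE 0.25, 95% confidence interval -1.86 to -0.70, limma adjusted p = 0.0133), or 2.43-fold. This was the 58th lowest difference of the 15502 probe sets. A second, dimmer pax2a probe set read 5.32, 4.80 and 5.54 in controls and 4.32, 4.75 and 4.54 in EWS-FLI1 embryos. It ordered the 6 arrays as the brighter one did and differed by -0.68 (limma adjusted p = 0.0497), with groups only 0.05 apart. The brighter set's call was lost without control 1 (difference -1.20, adjusted p = 0.0504), without EWS-FLI1 1 (-1.14, adjusted p = 0.0692) and without EWS-FLI1 3 (-1.24, adjusted p = 0.0616). The dimmer set's call was lost without any 1 array except control 2 (limma adjusted p between 0.0733 and 0.190).

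eng2a, an engrailed homeobox gene that acts with pax2a in the midbrain-hindbrain territory, was dim. It read 3.78, 3.38 and 4.43 in controls and 2.88, 3.28 and 2.71 in EWS-FLI1 embryos. The groups did not overlap, but both means lay within the background reference, and of the 6 arrays only control 3 exceeded it. The difference was -0.91 (SE 0.25, 95% confidence interval -1.48 to -0.34) with a limma adjusted p of 0.0502, just outside the threshold. Without control 2 it was -1.15 (adjusted p = 0.00784), and without control 3 it was -0.62 (adjusted p = 0.0635).

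The gbx genes, which mark the hindbrain side of the boundary, were not called, and their control arrays were far apart. gbx1, which in zebrafish is active from earlier in gastrulation than gbx2, read 7.82, 8.02 and 6.90 in controls and 6.74, 7.0 and 7.17 in EWS-FLI1 embryos. Control 3 fell among the EWS-FLI1 arrays, and the difference was -0.61 (SE 0.26, limma adjusted p = 0.192). gbx2 read 6.76, 6.20 and 7.78 in controls and 6.07, 6.20 and 6.20 in EWS-FLI1 embryos. Here control 2 equalled the highest EWS-FLI1 arrays and control 3 was the high one, and the difference was -0.76 (SE 0.33, limma adjusted p = 0.195). Leaving out the low control made each difference a call: -0.95 for gbx1 without control 3 (adjusted p = 0.00382) and -1.11 for gbx2 without control 2 (adjusted p = 0.0173). Leaving out the highest control made each smaller: -0.39 for gbx1 without control 2 (adjusted p = 0.365) and -0.32 for gbx2 without control 3 (adjusted p = 0.248). The 95% confidence intervals, not adjusted for the number of probe sets, ran from -1.21 to -0.01 for gbx1 and from -1.50 to -0.01 for gbx2, so a fall of the size seen in pax2a was not excluded for gbx2 and a difference near 0 was not excluded for either.

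meis3, the hindbrain Hox cofactor, was bright in every array. It read 8.64, 8.43 and 9.20 in controls and 7.60, 8.08 and 8.06 in EWS-FLI1 embryos. The groups stood 0.35 apart at their closest. It fell by 0.84 on the log2 scale (SE 0.20, 95% confidence interval -1.31 to -0.38, limma adjusted p = 0.0297), or 1.79-fold. The call was lost without control 1 (-0.90, adjusted p = 0.0621) and without EWS-FLI1 1, 2 or 3 (-0.69, -0.93 and -0.92, adjusted p = 0.123, 0.0657 and 0.0742).

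**Figure D2:**
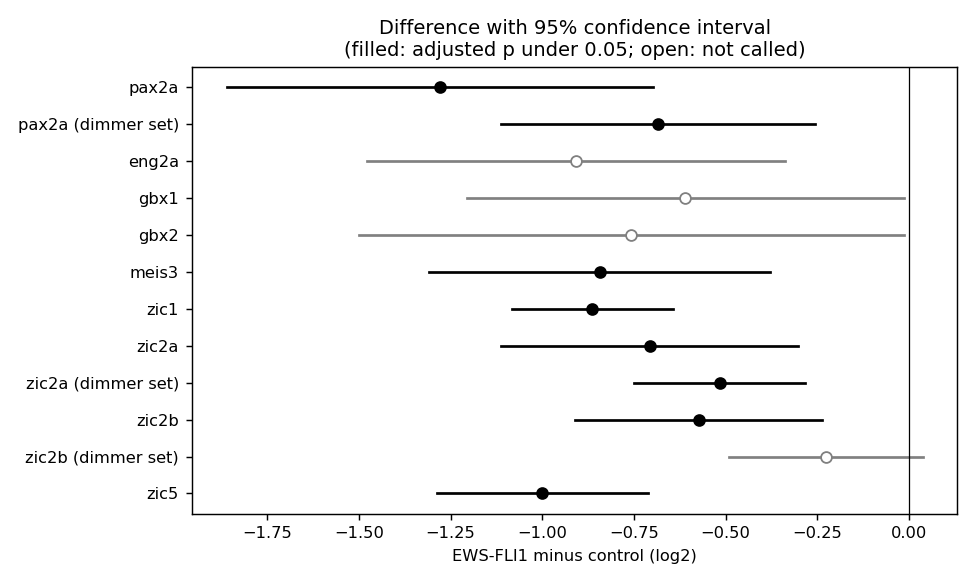
Difference between EWS-FLI1 and control means (log2, horizontal axis) of the 12 member probe sets with 95% confidence intervals, filled where called. All 12 points lie below 0. The intervals of gbx1 and gbx2 end at -0.01, and that of the dimmer zic2b probe set crosses 0, ending at 0.04.

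The zic genes fell at each of the 4 members, and their control arrays were close together. zic1 read 7.58, 7.33 and 7.44 in controls and 6.53, 6.55 and 6.68 in EWS-FLI1 embryos. The gap between the groups, 0.65, was larger than the range within either. Its level went from 7.45 ± 0.13 to 6.59 ± 0.08 (SD, n = 3 each), a difference of -0.86 (SE 0.10, 95% confidence interval -1.08 to -0.64, limma adjusted p = 9.5e-04), or 1.82-fold.

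zic5 gave 6.01, 6.09 and 5.96 in controls and 4.83, 4.93 and 5.30 in EWS-FLI1 embryos. No control was within 0.66 of an EWS-FLI1 array. It fell by 1.0 (SE 0.13, 95% confidence interval -1.29 to -0.71, limma adjusted p = 0.00170), which is 2.00-fold. zic1 and zic5 were the members called in each of the 16 alternative settings that were run, with differences from -0.92 to -0.80 and from -1.14 to -0.91.

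zic2a and zic2b, duplicate copies of 1 ancestral gene, were the brightest members and followed each other from array to array. zic2a read 9.24, 9.28 and 8.95 in controls and 8.03, 8.70 and 8.62 in EWS-FLI1 embryos. zic2b read 9.74, 9.66 and 9.45 in controls and 8.72, 9.26 and 9.15 in EWS-FLI1 embryos. In both genes EWS-FLI1 1 was the lowest of all arrays and control 3 the lowest control, and the groups did not overlap. zic2a fell by 0.71 (SE 0.18, limma adjusted p = 0.0343), or 1.63-fold, and zic2b by 0.57 (SE 0.15, limma adjusted p = 0.0381), or 1.49-fold. Whether probes of one copy also read the other was not tested. Both calls were lost without control 1, control 2, EWS-FLI1 1 or EWS-FLI1 3. The adjusted p then lay between 0.0624 and 0.103 for zic2a and between 0.0624 and 0.117 for zic2b, with differences no closer to 0 than -0.50 and -0.41. Each gene had a second probe set within the background reference in both groups: that of zic2a fell by 0.52 (limma adjusted p = 0.0128; called neither without EWS-FLI1 1, with adjusted p = 0.0689, nor without EWS-FLI1 2, with 0.0608), and that of zic2b differed by -0.23 (limma adjusted p = 0.281).

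In the RefSeq gene table, zic5 is the next protein-coding gene to zic2a and zic4 the next to zic1, the head-to-head arrangement usual for vertebrate zic genes. zic5 and zic2a of the first pair both fell. In the second pair zic1 fell, while zic4 read 2.60, 2.81 and 2.66 in controls and 2.49, 2.39 and 2.54 in EWS-FLI1 embryos, within the background reference throughout, and differed by -0.22 (limma adjusted p = 0.191). zic6, also within the reference, read 3.23, 3.10 and 3.06 in controls and 2.63, 2.77 and 2.62 in EWS-FLI1 embryos. It fell by 0.46 (limma adjusted p = 0.0128), a call lost without EWS-FLI1 1 (adjusted p = 0.0677) or EWS-FLI1 3 (0.0647).

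The members differed in how much the control pools varied. The range over the 3 controls was 1.0 for pax2a, 1.05 for eng2a, 1.12 for gbx1, 1.58 for gbx2 and 0.77 for meis3, but 0.25, 0.33, 0.29 and 0.13 for zic1, zic2a, zic2b and zic5. Among the 9491 probe sets above the background reference the median range over controls was 0.28 and the 95th percentile 0.81, so pax2a, eng2a, gbx1 and gbx2 were past that percentile, eng2a itself being dimmer than this set, and meis3 was close under it. For eng2a, gbx1 and gbx2 the control range exceeded the difference between the groups. Over the EWS-FLI1 arrays no member's brightest probe set ranged over more than 0.67. The same 9491 probe sets, however, had a median range of 0.16 there and a 95th percentile of 0.41. Past that percentile were zic2a (0.67), pax2a (0.66), eng2a (0.57), zic2b (0.54), meis3 (0.48), zic5 (0.47) and gbx1 (0.43). zic1 (0.15) and gbx2 (0.13) were below the median.

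**Figure D3:**
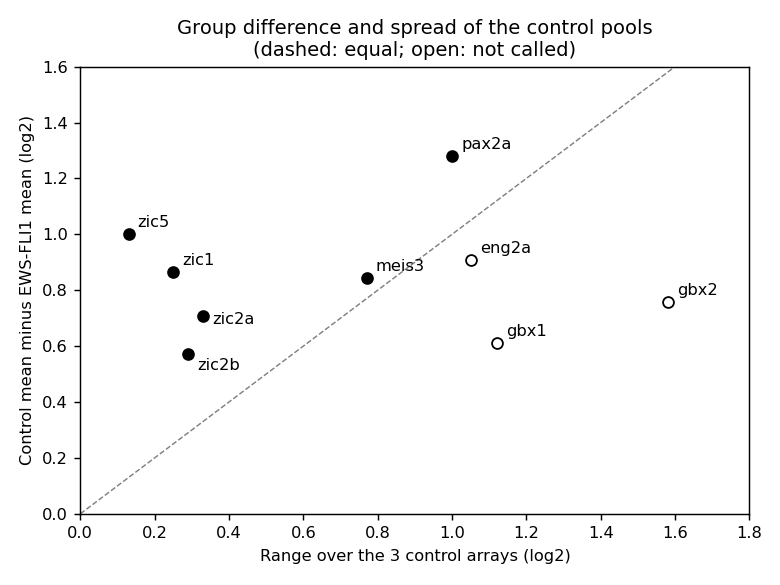
Control mean minus EWS-FLI1 mean against the range over the 3 control arrays (both log2) for the brightest probe set of each member, filled where called. The 4 zic genes sit at control ranges of 0.13 to 0.33, and eng2a, gbx1 and gbx2 lie below the dashed line where the range equals the difference.

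Some members, but not all, shared an order of the control arrays. pax2a, eng2a, gbx2 and meis3 were each highest in control 3 and lowest in control 2, with control 3 above the mean of the other two by 0.64, 0.85, 1.30 and 0.67. gbx1 ran the other way, at -1.02, and zic2a, zic2b and zic5 were also lowest in control 3, by -0.31, -0.25 and -0.09. For zic1, highest in control 1, the value was -0.015. Across probe sets above the background reference, the 5th and 95th percentiles of this quantity were -0.445 and 0.445. Control 3 was the highest control at 37.3% and the lowest at 32.7% of these probe sets, and control 2 was the lowest at 34.5%.

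The boundary list and 2 lists of genes by stage differed in how they followed this order. The boundary list did not follow it on average: over its 22 further genes the control means were 6.31, 6.34 and 6.30. Single genes went both ways, with control 3 highest at 7 and lowest at 8. Control 3 minus the mean of controls 1 and 2 was -0.765 for pou5f3 and -0.555 for otx2a, but 0.335 for her5 and 0.29 for pax2b. On a list drawn up for late gastrulation and somite stages, 12 genes were measured, members left out. Control 3 was highest at 9 of them and control 2 lowest at 8. Their control means ran from 2.85 for myod1 to 9.15 for aldh1a2. Some were thus already bright, and the list is only a rough guide to stage. Mean levels of these 12 genes were 6.71, 6.58 and 7.09 in controls 1, 2 and 3. In the EWS-FLI1 arrays they were 6.30, 6.45 and 6.41. Of the 12, 8 fell, and 2 rose, egr2b and neurog1 (median -0.63). Without EWS-FLI1 1, 6 falls and 0 rises were called. Of 12 early gastrula genes, control 3 was highest at 1 and lowest at 6. Their means were 6.42, 6.61 and 6.37 in controls and 6.12, 6.14 and 6.22 in EWS-FLI1 arrays. Of these 12, 4 fell and 0 rose (median -0.255). Leaving out control 1, control 2 or any 1 of the EWS-FLI1 arrays left 3 falls called. The part of stage in the members' differences was not tested.

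**Figure D4:**
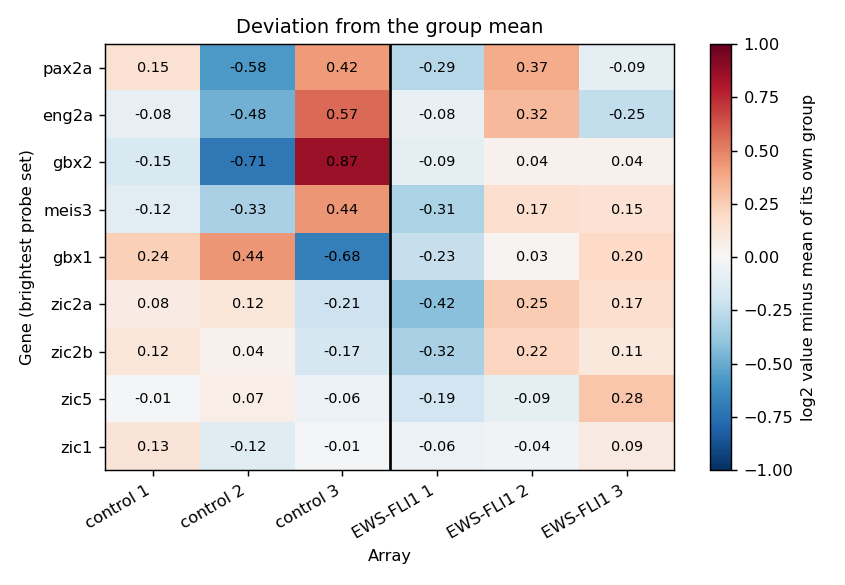
Log2 value minus the mean of its own group for the brightest probe set of each member (rows) on each array (columns). Control 3 is high for pax2a, eng2a, gbx2 and meis3 (0.42 to 0.87) and low for gbx1 (-0.68), while the zic genes lie between -0.21 and 0.13 in the controls.

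Genes that act with the members at the boundary were divided between falls, some of them lost when 1 array was left out, and no call. Of 22 further measured genes from a list of 31 boundary genes, 10 fell, 0 rose and the other 12 had no call. Their median was -0.32. At an unadjusted p under 0.05, for which no share over all probe sets was counted, 11 fell and 0 rose by limma. The anterior factors otx1 and otx2b, which meet gbx at the boundary, fell by 1.03 (SE 0.15, limma adjusted p = 0.00312) and 0.95 (SE 0.11, limma adjusted p = 0.00106). otx2a read 7.27, 7.30 and 6.73 in controls and 6.64, 6.89 and 6.77 in EWS-FLI1 embryos, and its difference of -0.33 (limma adjusted p = 0.234) became a call of -0.52 without control 3 (adjusted p = 0.0132). As in gbx1, control 3 fell among the EWS-FLI1 arrays. Group means of the otx and gbx genes were thus lower in EWS-FLI1 embryos, although otx2a, gbx1 and gbx2 were not called. RNA of pooled embryos does not show where in the neural plate a level changed.

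Of the boundary's signals, the Fgf ligand gene fgf8a fell by 0.96 (SE 0.11, limma adjusted p = 0.00122), from 8.69, 8.43 and 8.64 in controls to 7.44, 7.75 and 7.68. The Fgf feedback inhibitor genes spry4 and spry2 fell by 0.72 and 0.53 (limma adjusted p = 0.00974 and 0.0175), the second not called without EWS-FLI1 1 or 3 (adjusted p = 0.0863 and 0.0801). Dimmer spry2 probe sets differed by -0.40 (limma adjusted p = 0.0193, called) and by -0.21 (limma adjusted p = 0.229, not called). fgf8b was within the background reference in both groups (0.21, limma adjusted p = 0.220). The Wnt ligand genes wnt1 and wnt10b had group means near the reference, between 4.11 and 4.26, and differed by 0.11 and -0.14 (limma adjusted p = 0.662 and 0.549). cnpy1, a positive regulator of Fgf signalling at the zebrafish boundary, read between 7.23 and 7.44 in all 6 arrays and differed by -0.01 (95% confidence interval -0.21 to 0.19).

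Among boundary transcription factors, the Iroquois genes irx7 and irx1b fell by 1.06 and 1.04 (limma adjusted p = 0.00137 and 0.00177). The Hairy-related repressor gene her5, which keeps boundary cells from neurogenesis, fell by 0.57 (limma adjusted p = 0.0144), and the zinc-finger gene sp5a by 0.51 (limma adjusted p = 0.0161). her5 lost its call without EWS-FLI1 1 or 2 (adjusted p = 0.0748 and 0.0537), and sp5a without control 1, EWS-FLI1 1 or EWS-FLI1 3 (0.0533, 0.0720 and 0.0691). sp5l differed by -0.32 (limma adjusted p = 0.1). pou5f3, an early factor needed for pax2a in zebrafish, read 9.17, 9.54 and 8.59 in controls and 8.72, 8.99 and 8.99 in EWS-FLI1 embryos, with control 3 again apart, and differed by -0.20 (limma adjusted p = 0.653). Its difference was -0.46 without control 3 (adjusted p = 0.0730), 0.02 without control 2 (adjusted p = 0.966) and -0.11 without EWS-FLI1 1 (adjusted p = 0.882), so no direction was settled.

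**Figure D5:**
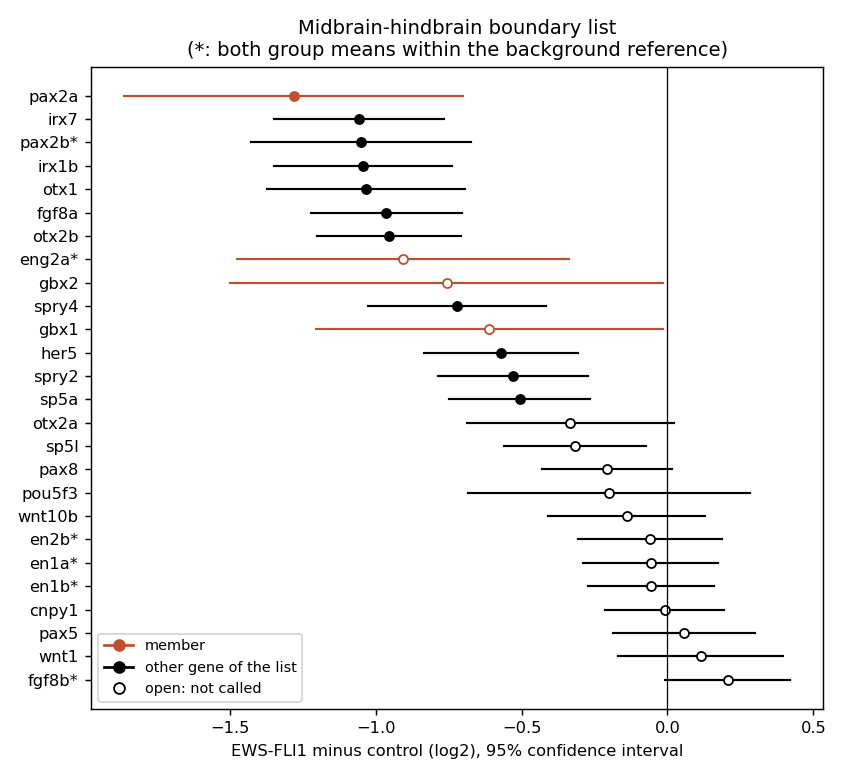
Differences between EWS-FLI1 and control means (log2) with 95% confidence intervals for the 26 measured genes of the boundary list, members in colour, filled where called, with an asterisk where both means are within the background reference. pax2a has the lowest value, and 11 of the 26 genes are filled, all below 0.

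The paralogs of the pax and engrailed members gave little signal. pax2b, the second copy of pax2, fell by 1.05 (limma adjusted p = 0.00447) within the background reference, from 4.02, 3.38 and 3.99 in controls to 2.67, 2.84 and 2.73, and its other probe set differed by -0.16 (limma adjusted p = 0.338). Control 2 was the low control, as for pax2a. pax5 and pax8, which act downstream of or beside pax2a, differed by 0.06 and -0.21 (limma adjusted p = 0.822 and 0.241) at group means between 4.27 and 4.94. en1a, en1b and en2b lay within the reference in both groups and differed by -0.06 each (limma adjusted p between 0.794 and 0.814). Differences shrink in dim probe sets, so a change could have been missed. The level alone did not prevent a call, since pax2b fell from a control mean of 3.80, near that of en1b (3.82).

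Among hindbrain genes that act around meis3, more fell than rose. Of 24 further measured genes from a list of 30, 10 fell, 2 rose and the other 12 had no call, with a median of -0.37. The Hox genes hoxb1a and hoxb3a fell by 1.40 and 1.07 (limma adjusted p = 0.00489 and 0.00895), the second not called without EWS-FLI1 1 (adjusted p = 0.0505). The meis paralogs meis1b and meis2b fell by 1.03 and 0.91 (limma adjusted p = 0.00418 and 0.00170). meis1a and meis2a, the latter within the reference, differed by -0.22 and -0.39 (limma adjusted p = 0.424 and 0.294).

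Transcripts of the pbx genes, whose proteins bind DNA together with Meis and Hox proteins, did not move as a group. pbx4, which zebrafish hindbrain patterning requires, read 7.43, 6.31 and 7.33 in controls and 6.36, 6.83 and 6.37 in EWS-FLI1 embryos, and differed by -0.50 (limma adjusted p = 0.321), by -0.86 without control 2 (adjusted p = 0.00593) and by -0.30 without control 1 (adjusted p = 0.620). pbx2 differed by -0.11 (limma adjusted p = 0.523). pbx3b rose by 0.83 (limma adjusted p = 0.00106), from 3.37, 3.51 and 3.56, within the background reference, to 4.23, 4.28 and 4.43. egr2b, a factor of hindbrain segments, rose from 4.66, 4.04 and 6.15 to 7.51, 7.24 and 7.22, a difference of 2.37 (limma adjusted p = 0.00951; 0.0534 without EWS-FLI1 1). In the controls egr2b was highest in control 3 and lowest in control 2, as were pax2a and meis3. Over the 24 hindbrain genes control 3 was highest at 18 and control 2 lowest at 15.

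Genes of other tissues in the same embryos also fell in part. Of 14 genes of the general neural plate 7 fell and 1 rose (median -0.62). Of 13 neural crest and border genes 6 fell (median -0.81). Of 9 epidermal genes 3 fell (median -0.27). Of 8 mesodermal genes 4 fell and 1 rose (median -0.54), the rise being tbxta (0.54, limma adjusted p = 0.0123). The epidermal falls were tp63 (-1.33), dlx3b (-0.97) and gata3 (-0.61), with limma adjusted p = 7.7e-05, 0.00568 and 0.0128. The other 6 were not called, among them the keratin genes krt4, krt5, krt8 and krt18a.1. krt4 and krt5 are counted in the enveloping layer list as well. Other lists also share genes, so their counts are not independent. The late gastrula and somite list shares hoxb1a, aldh1a2 and egr2b with the hindbrain list, and her5 and pax8 with the boundary list. It shares tbx6, mespaa and myod1 with the mesodermal list and foxd3 with the crest list. irx7 is on the boundary and hindbrain lists, and foxi1 and mixl1 are on the early gastrula list as well. Of 7 endodermal genes 1 fell, of 6 genes of the enveloping layer 1 fell and 1 rose, and of 4 genes of the yolk syncytial layer 0 were called by limma (1 fell at an unadjusted p under 0.05). Without control 3 the endodermal count was 4, and the rise in the neural plate list was not called without EWS-FLI1 1 or 3. The median of the 9 members, -0.84, was close to that of the neural crest and border list, and no test was made between lists. The part of tissue composition in the members' differences was not tested.

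Profiles most like the members' were found by the Euclidean distance over the 6 arrays, each gene's log2 values centred on its own mean. Nearest to the mean of the 9 members were the mesodermal T-box gene tbx6 (distance 0.084), the ETS gene etv5a (0.089), the Hairy-related gene her9 (0.121), the ephrin gene efna5a (0.123) and meis2b (0.148). Nearest to pax2a alone were hoxb1a (0.295), the collagen gene col18a1a (0.331) and hoxb3a (0.365), which share its high control 3 and low control 2. Nearest to zic2a alone, apart from members, were the unnamed locus si:ch73-141c7.1 (0.234), plxdc2b (0.247) and the Kruppel-like gene klf2b (0.256), which like zic2a were lowest in EWS-FLI1 1.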

How the data were processed

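The deposited file holds log2 values per probe set and array, which the authors made with RMA in the affy package under R 2.2.0, per the submitters' processing notes. Since RMA subtracts background and equalizes the arrays' distributions, differences are relative to the whole array and shrink where a probe set is dim. The values, 1.58 to 13.46, were taken as log2 from their range. Of the probe sets, 115 manufacturer controls were left out. Symbols came from GEO's platform annotation, updated by Entrez identifier against RefSeq's table of GRCz12tu. 10795 probe sets had 1 gene, 135 several and 4572 were unlisted.

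limma 3.58.1 in R 4.3.3 (lmFit, eBayes, 2 group means, two-sided) was fitted to all 15502 probe sets, with Benjamini-Hochberg adjustment over them. The brightest probe set stood for a gene in lists and profile distances. Context genes were named by list, and for the hindbrain list the largest differences. Members and lists were chosen with earlier results of these data known, and the background reference after values were seen. Same-numbered replicates of the groups are not stated to share a clutch, so no block was used in the main fit. Nor did they deviate together (correlations -0.08, -0.10 and -0.08 across probe sets, against -0.003 to 0.077 for the other pairs). In a simulation of this comparison with 15502 probe sets, a log2 change of 0.5 was recovered in 41% of cases and one of 1 in 89%, with 11 of 141 calls false. The 200 changed probe sets were drawn at random, and both groups were given the same SD. The data gave more calls than that, 1001 lower and 834 higher, and recovery after adjustment depends on how many probe sets change. These shares are thus averages and need not hold for the data, nor for members with wide control ranges, such as pax2a, eng2a, gbx1 and gbx2. Alternatives covered a replicate block, a filter on dim probe sets, scaling, the prior, array weights, threshold, a minimum change, 1 probe set per gene and each array left out. Plots were drawn with matplotlib.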

Additional observations from a re-analysis of the deposited data

How the results depend on the processing

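All 187 member differences under the alternatives stayed below 0, and 145 kept their side of the threshold, 35 lost the call and 7 gained it. Many of the 187 could not change sign. Another threshold, prior, filter, minimum change, choice of probe set or the replicate block leaves a difference as it was. Only rescaling, array weights and leaving out an array could move it. The 8 member probe sets called became 2 at an adjusted p under 0.01 (zic1 and zic5) and 3 with a minimum change of 1.2-fold, and ranged from 2 to 8 when 1 array was left out. With the replicate block, 6 were called. Pairing by replicate number has no basis in the labels, and the block took the calls of the dimmer pax2a probe set (adjusted p = 0.0685) and of zic2b (0.0571). eng2a was called after subtracting array medians (adjusted p = 0.0456), after renewed quantile normalization (0.0435), with a trended prior (0.0392) and with array weights (0.0319). Over all probe sets, the 1001 lower and 834 higher calls became 411 and 415 at an adjusted p under 0.01, 290 and 308 with the minimum change, and 628 and 504 with 1 probe set per gene, where fewer were tested. Leaving out 1 array gave 433 to 1286 lower and 450 to 1023 higher calls, the lowest without EWS-FLI1 1. The cause was not tested. Signal over background limits eng2a and the second probe sets of zic2a and zic2b.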
